A study of Drosophila melanogaster with 18 samples.

Results

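The genes described here are those of the fourth chromosome of Drosophila melanogaster. Of 14542 gene entries in the deposited tables, 93 lay on chromosome 4. Members were the chromosome 4 entries with at least 1 FPKM (fragments per kilobase of a transcript, scaled for depth) in either genotype at some stage. The symbol bt and symbols that begin RpS, Rp(t|n), Cyp or CR were left out, which removed 12 entries, and 5 more were below the level. This gave 76 genes, and all 76 reached the level in w1118 alone. The members nearest the limit were CORL, with a highest value of 1.14 FPKM, and fd102C, with 1.36 FPKM, and the entry just outside it was Kif3C, with 0.710 FPKM. Under the same level and symbol rules, arms 2L, 2R, 3L, 3R and X held 11214 genes, and these are the comparison set.

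RNA of whole animals was sequenced in 18 samples, 3 for each of 6 groups. One genotype was the laboratory strain w1118. The other was trans-heterozygous for the Nxt1 alleles DG05102 and Z2-0488, with yw given as its strain. Each genotype was sampled as wandering larvae of the last instar, as stationary larvae and as white prepupae. Below, values of the 3 stages stand in that order, and of a pair of FPKM values the first is w1118 and the second the trans-heterozygotes. Nxt1 is a cofactor of the mRNA export receptor. The w1118 and yw backgrounds differ along with the Nxt1 alleles, so the effects of background and of the alleles cannot be told apart.

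The fourth, or dot, chromosome is the smallest of the fly and has gene-rich stretches set among heterochromatin. Its genes are transcribed although the chromosome carries the heterochromatin protein HP1a and histone H3 methylated by the enzyme egg. The protein Pof binds the active genes of this chromosome as a group and is known to raise their output. The genes include regulators of eye, wing and nervous system development, synaptic proteins and housekeeping genes.

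A smaller share of the chromosome 4 genes than of all genes was called different between the genotypes, and most of the gap lay in the genes lower in the Nxt1 trans-heterozygotes. Calls are those of the authors' deposited table, at a deposited q of at most 0.05. In wandering larvae 1 of 69 tested members was called, where 11.8% of all tested genes were. In stationary larvae 2 of 75 were called against 17.9% of all genes, and in white prepupae 4 of 72 against 16.9%. Members called lower numbered 0, 1 and 1 at the 3 stages, where 9.49%, 13.2% and 12.9% of all tested genes were called lower. Members called higher numbered 1, 1 and 3, where 2.29%, 4.7% and 4.03% of all genes were. At these small counts the share called higher was near the background in wandering larvae and prepupae and below it in stationary larvae. In whole-animal samples, fewer cells of a type and less RNA per cell cannot be told apart.

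The matched comparison gave the same picture. When genes of the other arms were weighted to the members' w1118 FPKM, 9.63%, 15.1% and 13.9% of them were called lower. The weighted shares called higher were 2.43%, 4.94% and 5.08%. Of the single arms, X had the smallest share called in either direction, with 8.73%, 12.6% and 12.7%, and 2L the largest, with 13.8%, 20.8% and 19.4%. The share of chromosome 4, at 1.45%, 2.67% and 5.56%, was below that of every other arm at each stage. Several marker lists also differed between the genotypes, and the testis list had the lowest median ratio. Of 19 tested testis markers, 18, 17 and 17 were called lower, and their summed FPKM in wandering larvae was 1052 in w1118 and 57.3 in the trans-heterozygotes. At the stationary stage the sums were 1470 and 92.7, and in prepupae 1194 and 64.7. Of 10 muscle markers, 3, 7 and 2 were called higher and 0, 1 and 1 lower. Haemocyte markers were called higher in 3 of 4, 2 of 4 and 1 of 3 tested and lower in 0, 1 and 0. Of 6 fat body markers, 0, 1 and 1 were called higher and 0, 1 and 2 lower. Markers of muscle, fat body, neurons and imaginal discs were above 0 in every group, as fits whole animals. The part of these markers in the difference between arms was not tested.

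**Figure D1:**
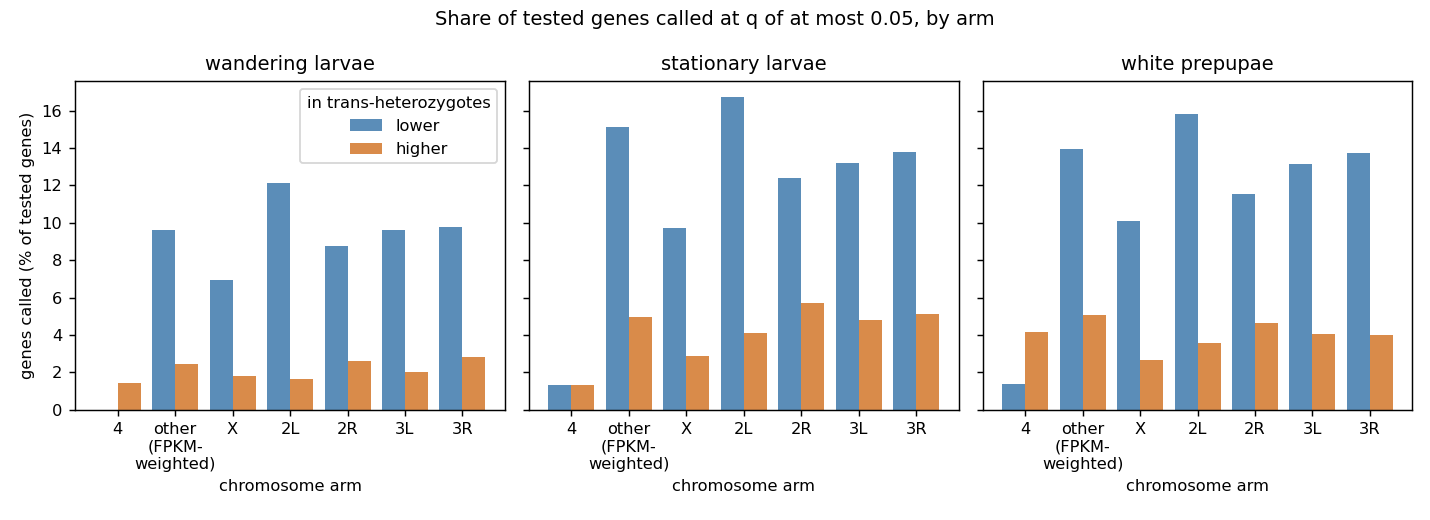
Percent of tested genes called lower and higher in the Nxt1 trans-heterozygotes, per chromosome arm and stage, at a deposited q of at most 0.05. Chromosome 4 has the smallest share called lower at each stage, with 0 of 69, 1 of 75 and 1 of 72 genes.

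The changes of the members were also small in size. Sizes are given as log2 of the ratio of FPKM + 1, trans-heterozygotes over w1118, so that a positive value is higher in the trans-heterozygotes. The median over tested members was 0.08, 0.01 and 0.08. The medians over all tested genes were -0.01, -0.04 and -0.05, and those of the weighted other arms -0.03, -0.11 and -0.08. The interquartile range of the members was 0.26, 0.30 and 0.24 on this log2 scale, whereas that of the weighted other arms was 0.45, 0.66 and 0.56. Within 1.5-fold of w1118 lay 68 of 69, 70 of 75 and 66 of 72 members, and the weighted shares of other genes were 79.3%, 70.9% and 75.9%. A change of 2-fold or more was present in 1, 2 and 2 members, and in 14.1%, 17.4% and 14.1% of the weighted other genes.

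Precision differed less than the spread did. Standard errors of the log2 fold change had medians of 0.23, 0.23 and 0.19 in the members and 0.27, 0.27 and 0.23 in the weighted other arms. The 95% interval of the log2 fold change stayed inside 2-fold in both directions for 58 of 69, 60 of 75 and 57 of 72 members. The weighted shares of other genes with such an interval were 62.7%, 52.7% and 62.2%. The intervals of the other members reached or passed 2-fold. The tables hold 1 pooled FPKM per genotype and stage, so the spread between the 3 samples enters only through the deposited test.

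**Figure D2:**
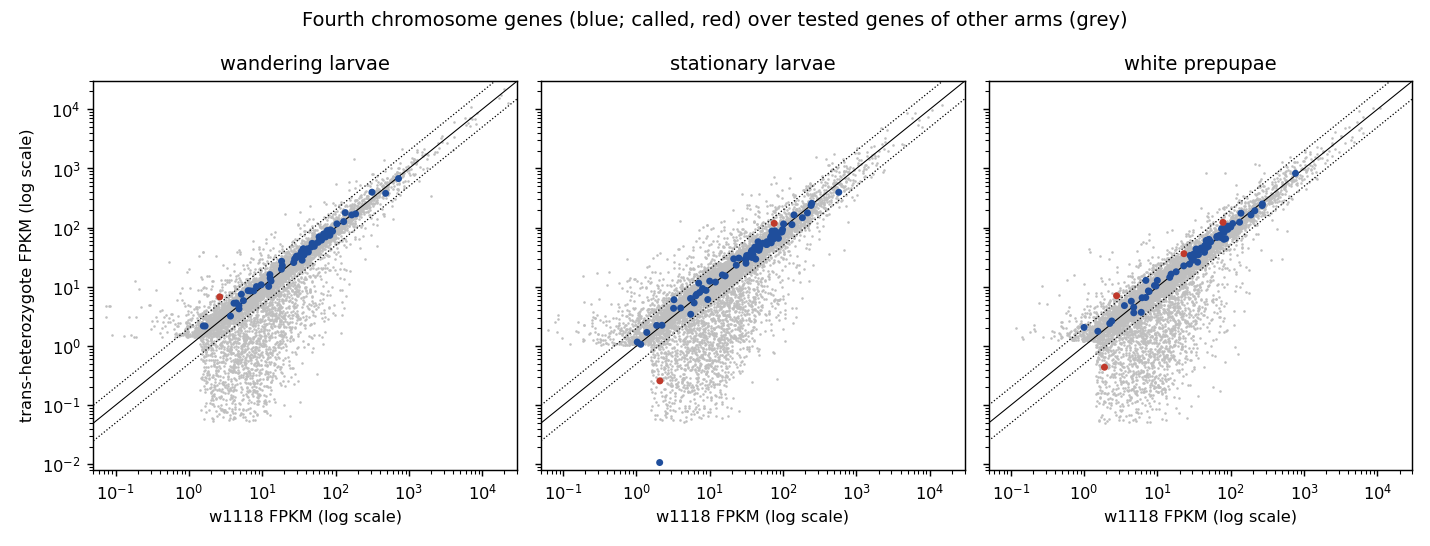
Pooled FPKM of each gene in w1118 (horizontal, log scale) and in the Nxt1 trans-heterozygotes (vertical, log scale), with tested chromosome 4 genes (red where called) over tested genes of other arms in grey. Every tested member is drawn, genes of other arms under 0.05 FPKM in a genotype are not, dotted lines mark 2-fold, and in stationary larvae only JYalpha and CG32006 of the members lie beyond them.

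As a group, the members were expressed at higher levels than other genes. Their median w1118 FPKM was 34.8, 37.3 and 36.5 at the 3 stages, and that of the genes of other arms was 11.9, 13.04 and 12.1. Per stage, 55, 54 and 54 members had at least 10 FPKM and 8 had at least 100. Summed over the 76 genes, the FPKM was 4445 in w1118 and 4494 in the trans-heterozygotes in wandering larvae, a ratio of 1.01. In stationary larvae the sums were 4208 and 3978, a ratio of 0.945, and in prepupae 4540 and 4743, a ratio of 1.04. Of the stationary sums, 573 and 396 FPKM were those of 1 uncalled gene, Rfabg. The sums of the genotypes lay within 1.5-fold of each other at every stage. The authors scaled each stage on its own, so a level of one stage cannot be set against that of another.

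The most abundant member was Rfabg, which encodes the apolipophorin carried in the lipoprotein of the haemolymph. It had 723 and 674 FPKM, 573 and 396 FPKM, and 763 and 827 FPKM. The stationary log2 fold change of -0.54 ± 0.33 (SE) was not called, with a deposited q of 0.338. CG31997 had 482 and 380 FPKM (q 0.397), 240.2 and 237 FPKM, and 269 and 251 FPKM. ATPsyn-beta, the catalytic subunit of the mitochondrial ATP synthase, had 314 and 397 FPKM, 246 and 258 FPKM, and 268 and 237 FPKM, with q values of 0.540, 0.928 and 0.588. Rad23, a ubiquitin receptor of DNA repair, and Crk, an adaptor of receptor signalling, had between 147 and 215 FPKM in every group. None of these 5 genes was called at any stage.

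Transcription factors made up the largest functional group, with 14 members, and held most of the higher calls. Of 11, 13 and 12 tested, 1, 0 and 2 were called higher, where 2.29%, 4.7% and 4.03% of all tested genes were, and none lower, where 9.49%, 13.2% and 12.9% were. The group medians were 0.24, 0.11 and 0.13, beside -0.01, -0.04 and -0.05 over all tested genes. The called genes were ey and pan.

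The gene eyeless (ey, chromosome 4, 718315 to 741799) encodes a Pax6 factor that directs eye development and acts in the brain. It had 2.64 and 6.76 FPKM, 3.25 and 6.06 FPKM, and 2.77 and 7.05 FPKM. The pooled value was higher in the trans-heterozygotes at each stage. The log2 fold change was 1.36 ± 0.47 (SE) in wandering larvae, with a deposited q of 0.0331 in the authors' deposited table, and 1.35 ± 0.43 in prepupae, with q 0.0126. In stationary larvae it was 0.90 ± 0.45 and was not called, with q 0.180. Taken from the most abundant start-site group in place of the gene, the log2 ratio of FPKM + 1 was 0.14 in wandering larvae and 0.55 in prepupae, and neither was called. Neuron markers, listed because ey is active in the brain, were called higher 0, 1 and 0 times of 11, 11 and 10 tested, and imaginal disc markers 0, 0 and 1 time of 5. The second Pax6 gene, twin of eyeless (toy), had 8.37 and 10.1 FPKM, 9.96 and 12.5 FPKM, and 9.96 and 12.8 FPKM. Its log2 fold changes of 0.27 ± 0.33, 0.32 ± 0.32 and 0.36 ± 0.28 were not called, and their intervals reached up to 0.91, 0.95 and 0.91.

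The gene pangolin (pan, chromosome 4, 89952 to 134896) encodes the TCF factor at the end of the Wingless pathway. It had 18.8 and 22.8 FPKM, 21.2 and 29.7 FPKM, and 23.0 and 36.3 FPKM. It was called higher in prepupae, by 1.58-fold, with a log2 fold change of 0.66 ± 0.20 and a deposited q of 0.00813. The log2 fold changes at the earlier stages, 0.27 ± 0.27 and 0.49 ± 0.26, had q values of 0.826 and 0.217. The coactivator lgs, which works with pan and the beta-catenin of the fly, had 26.9 and 25.7 FPKM, 31.2 and 29.4 FPKM, and 32.3 and 33.3 FPKM, with no call.

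**Figure D3:**
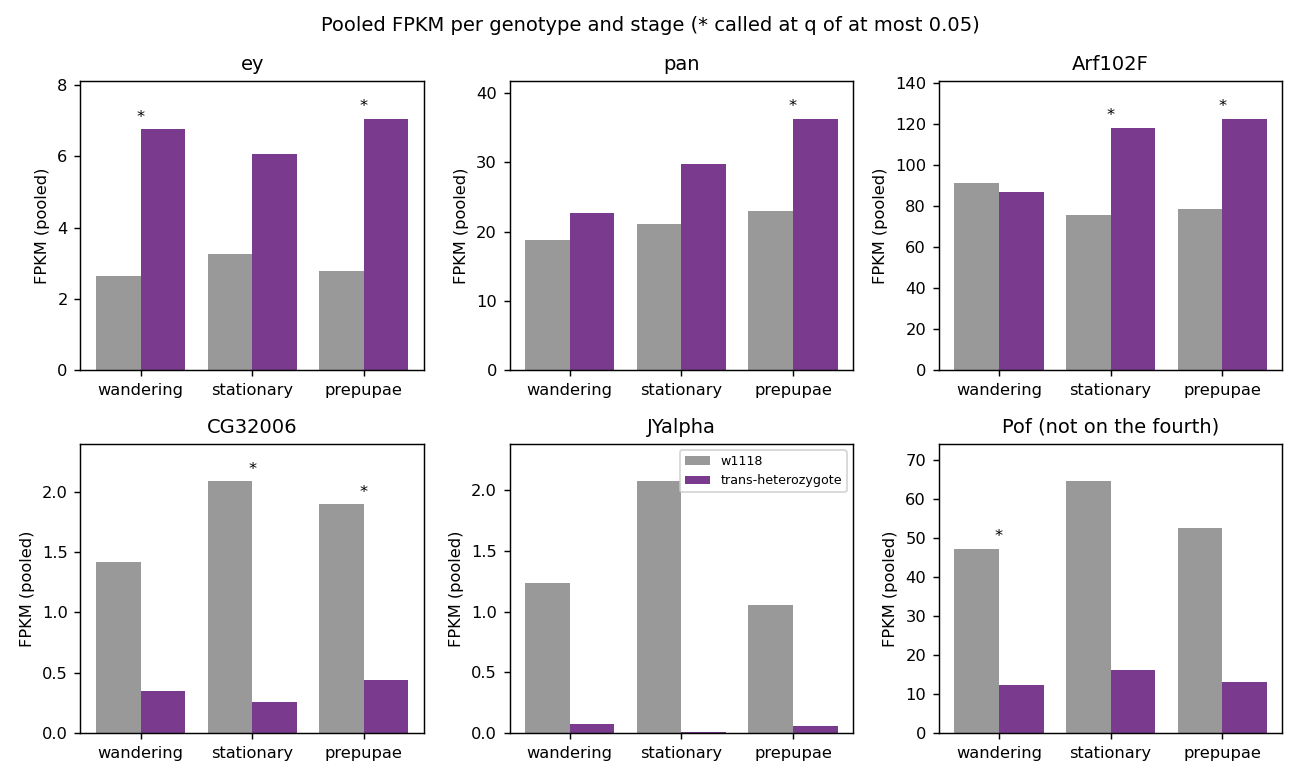
Pooled FPKM (vertical, from 0) of the members ey, pan, Arf102F, CG32006 and JYalpha and of Pof, in w1118 (grey) and the Nxt1 trans-heterozygotes (purple) at the 3 stages, with no error bars because each bar is 1 pooled value. Stars mark calls, and ey and pan are higher while CG32006, JYalpha and Pof are lower in the trans-heterozygotes at each stage.

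The other transcription factors had no call at gene level. The Hedgehog effector ci had 32.5 and 34.0 FPKM, 37.3 and 39.6 FPKM, and 39.5 and 45.2 FPKM. The interval of its log2 fold change stayed within -0.32 and 0.48 at all stages. The Polycomb-group DNA-binding protein gene pho (42.6 and 38.7 FPKM in wandering larvae), the wing and leg regulator zfh2 (18.3 and 19.9 FPKM) and the lysosome and metabolism regulator Mitf (35.5 and 35.9 FPKM) were similarly uncalled. The low-level factors sv, fd102C and CORL were tested at 2, 0 and 1 stages, and each tested interval held a change of 2-fold. In prepupae sv, a Pax2 relative, had 0.999 and 2.06 FPKM, and its log2 fold change of 1.04 ± 0.70 had an interval from -0.33 to 2.42. The cofactors lgs, Hcf and MED26 had group medians of -0.02, -0.08 and 0.04.

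Signalling and guidance genes had no call at gene level at any stage. The 3 ligands of the TGF-beta family on this chromosome, Actbeta, myo and mav, had log2 ratios between -0.19 and 0.36 over the stages. The guidance receptors plexA, plexB and Eph and the ligand Ephrin lay between -0.21 and 0.13. Of these, plexA, a receptor for semaphorins, had 61.0 and 62.9 FPKM, 74.0 and 64.4 FPKM, and 81.2 and 83.3 FPKM. Its coding-sequence usage was called in prepupae, with q 0.0176, and an isoform of myo was listed at 0 and 2.45 FPKM in stationary larvae, with q 0.0415.

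The 10 genes of neuronal release, channels and synapses had no gene-level call among 9, 10 and 10 tested, with medians of 0.16, 0.14 and 0.12. The highest ratio of FPKM + 1 among uncalled members of wandering larvae was that of unc-13, which primes synaptic vesicles and had 18.4 and 27.1 FPKM. Its log2 fold change of 0.56 ± 0.23 had a deposited q of 0.121. At the later stages it had 24.9 and 30.6 FPKM, and 27.9 and 34.0 FPKM, with q values of 0.499 and 0.304. The calcium-dependent kinase CaMKII had 68.8 and 78.3 FPKM, 70.4 and 87.2 FPKM, and 74.9 and 96.0 FPKM. Its pooled value was higher in the trans-heterozygotes at each stage, with q values of 0.935, 0.507 and 0.199. Caps, which acts in dense-core vesicle release, had 12.9 and 14.0 FPKM, 16.2 and 15.3 FPKM, and 18.0 FPKM in both genotypes of the prepupae. Of the neuron markers outside the chromosome, the summed FPKM was 208 and 225, 313 and 242, and 225 and 235. The median log2 ratio of FPKM + 1 over the tested markers was 0.26, 0.19 and 0.09. The stationary sums include a marker with a log2 ratio of -4.55, and no neuron marker was called lower.

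Arf102F (chromosome 4, 1144793 to 1145951), a small GTPase of vesicle transport, was the only call among 6 genes of GTPase signalling and the cytoskeleton. It had 91.2 and 86.9 FPKM, 75.5 and 118 FPKM, and 78.4 and 123 FPKM. The pooled values of the genotypes were close in wandering larvae and apart at the later stages. The log2 fold change was 0.65 ± 0.25 in stationary larvae, with a deposited q of 0.0484 just under the limit, and 0.64 ± 0.21 in prepupae, with q 0.0161. Taken from its most abundant start-site group, the stationary log2 ratio of FPKM + 1 was 0.64, as for the gene, and was not called. In prepupae this group had the gene's own FPKM values, so it is not a separate measure. The difference of the Arf102F fold change between stages did not pass the test given below. Over the tested genes of this list the log2 ratio of FPKM + 1 ran from -0.25 to 0.17, from -0.55 to 0.64 and from -0.58 to 0.64. The focal adhesion protein gene Zyx and the membrane scaffold gene Ank lay inside these ranges, with log2 fold changes between -0.13 and 0.18.

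CG32006 (chromosome 4, 171390 to 174164) was the only member called lower. It had 1.42 and 0.351 FPKM, 2.08 and 0.258 FPKM, and 1.90 and 0.438 FPKM. The pooled value was lower in the trans-heterozygotes at each stage, and the called differences were 8.09-fold at the stationary stage and 4.33-fold at the prepupal stage. The log2 fold changes there were -3.02 ± 0.76, with a deposited q of 0.000742, and -2.11 ± 0.69, with q 0.0167. In wandering larvae it was not tested by the authors.

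JYalpha (chromosome 4, 24053 to 25665), a relative of the sodium pump alpha subunit that is known to be needed for male fertility, had the lowest ratio of FPKM. It had 1.24 and 0.0745 FPKM, 2.07 and 0.0107 FPKM, and 1.05 and 0.0600 FPKM. It was tested in stationary larvae alone, where the log2 fold change was -7.59 ± 5.55 with a deposited q of 0.453, so it was not called. The interval of that value ran from -18.47 to 3.29. Beside both low genes stand the testis markers given above, whose summed FPKM was lower in the same genotype. Their part in the values of CG32006 and JYalpha was not tested.

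The housekeeping groups had no call at gene level. Among 5 transporters, the plasma membrane calcium pump PMCA had 104 and 116 FPKM, 101 and 115 FPKM, and 106 and 117 FPKM. The zinc transporter gene CG2177 had 46.2 and 60.6 FPKM in prepupae, with q 0.104. Among 5 genes of translation and RNA regulation, the initiation factor eIF4G had 129 and 126 FPKM, 132 and 112 FPKM, and 132 and 124 FPKM. The microRNA effector gw had 85.4 and 91.5 FPKM, 98.2 and 93.0 FPKM, and 99.8 and 103 FPKM. The medians of the 3 kinases Asator, Dyrk3 and CG17471 were -0.06, -0.04 and 0.09. The 2 DNA repair genes Rad23 and Thd1 lay between -0.27 and 0.11. The 17 members in no functional list held the calls of CG32006 and no other. Of these, CaMKI had 135 and 179 FPKM, 141 and 164 FPKM, and 138 and 175 FPKM, with q values of 0.311, 0.616 and 0.123. CG32850, which shares its locus with PMCA, had the highest ratio of FPKM + 1 among uncalled members of prepupae, with 7.65 and 8.54 FPKM, 7.06 and 11.5 FPKM, and 6.95 and 12.8 FPKM. Its prepupal log2 fold change of 0.88 ± 0.63 had a wide interval, from -0.34 to 2.11, and q 0.428. Without adjustment, 2, 4 and 8 members had a p-value under 0.05, and 18.2%, 25.9% and 25.6% of all tested genes did.

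**Figure D4:**
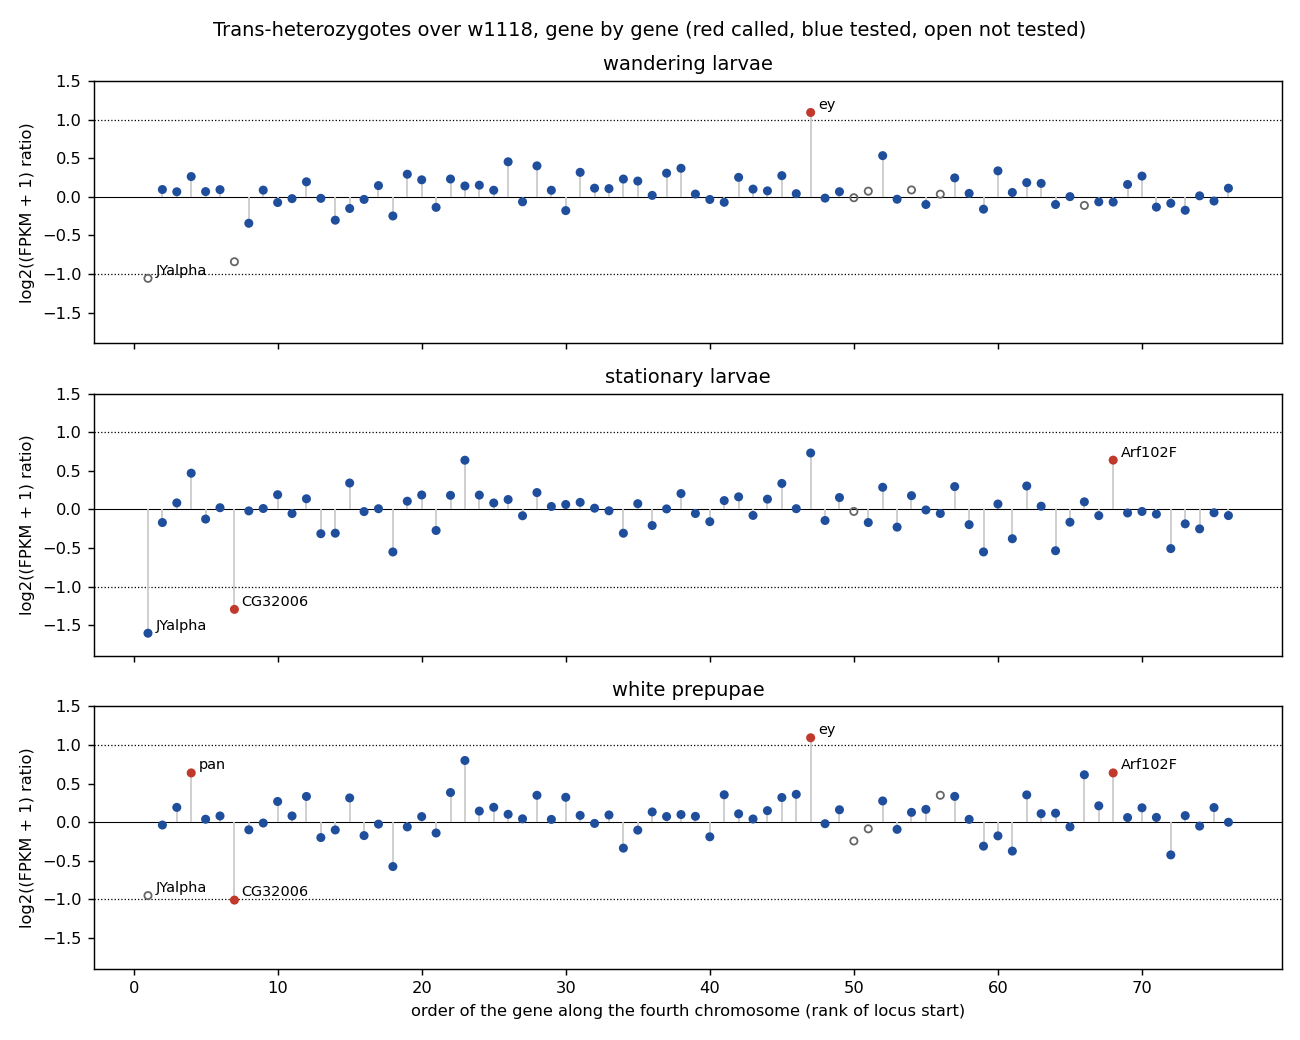
log2 of the ratio of FPKM + 1, Nxt1 trans-heterozygotes over w1118, for the chromosome 4 genes in their order along the chromosome, 1 panel per stage, with called genes marked. High and low values are spread along the chromosome, and most points lie near 0.

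No member's response passed a test of its difference between stages. Of 69, 72 and 69 members tested at both stages of a pair, none had a difference in log2 fold change that passed a two-sided normal test with Benjamini-Hochberg adjustment over all genes. These pairs were wandering against stationary larvae, stationary larvae against prepupae, and wandering larvae against prepupae, and the smallest adjusted p was 0.9998, 0.9999 and 0.755. Without adjustment, 1, 0 and 1 members had p under 0.05, beside 4.27%, 4.21% and 5.56% of all genes. In the same test 69, 89 and 107 genes of the whole genome were called. Of the 76 members, 26 were above w1118 at all 3 stages, which is 34.2%, and 25.9% of genes of other arms were. Below w1118 at all stages were 14 members, or 18.4%, against 33.2% of genes of other arms. The median range of the log2 ratio over the stages was 0.24 in members and 0.35 in other genes. For these shares and ranges, genes of other arms were not weighted to the members' w1118 FPKM, and untested genes were included.

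Members have larger gene structures than genes of other arms. In the Ensembl annotation, 74 of 76 members were found by symbol, all of them protein coding. The median longest intron was 2287.5 bp in these and 154 bp in genes of other arms, and 21 members, or 28.4%, had an intron of at least 5000 bp, against 13.6%. The median number of exons in the transcript with most exons was 9 and 3. Within the chromosome, longer loci tended weakly to have higher ratios. The span is that of the deposited locus, which 15 members share with another entry. Spearman's correlation of the log2 ratio with the locus span was 0.40, 0.28 and 0.28 over 69, 75 and 72 genes that share the same pooled libraries. With w1118 FPKM it was -0.33, -0.24 and -0.14, and with order along the chromosome it was -0.05, -0.10 and 0.09. These are descriptions across genes, which are not independent replicates. When other genes were weighted to the members' locus span in place of FPKM, 6.05%, 10.3% and 9.62% were called lower.

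Among genes whose products act on the chromatin of this chromosome, none of them members, Pof had 47.3 and 12.4 FPKM, 64.6 and 16.2 FPKM, and 52.7 and 13.04 FPKM. The pooled value was lower in the trans-heterozygotes at all 3 stages. In the authors' deposited table the log2 fold change was called in wandering larvae, at -1.93 ± 0.51 with q 0.00239. It was -1.99 ± 0.83 in stationary larvae and -2.01 ± 0.79 in prepupae, with q values of 0.0817 and 0.0622, which were not called. The member medians at these stages were the 0.08, 0.01 and 0.08 given above. The HP1a gene had 174 and 195 FPKM, 177 and 193 FPKM, and 171 and 172 FPKM, without a call. Of 8 entries of this list, 1, 0 and 0 were called lower and none higher. The entries of egg and Su(var)3-9 each join that gene with another one, so no value of either alone was given. Nxt1 itself, which carries the mutations, had 11.6 and 9.28 FPKM, 11.5 and 15.5 FPKM, and 10.6 and 17.9 FPKM, and was not called.

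Members were chosen on gene FPKM, of which the levels of isoforms and start-site groups are parts, so these levels are not a separate measure. For CG32006 in stationary larvae the isoform and the start-site group had the gene's own values, 2.08 and 0.258 FPKM. With both directions counted, isoforms and start-site groups of the members were called in shares below the background. Shifts in usage were not below the background at every stage. Among isoforms, 1 of 129, 11 of 158 and 6 of 136 were called, and the background was 7.36%, 11.3% and 12.2%. Isoforms called lower numbered 0, 7 and 1, against 6.61%, 9.1% and 9.18% of all isoforms. Those called higher numbered 1, 4 and 5, against 0.757%, 2.22% and 3.06%. The members' share of isoforms called lower was thus below the background at each stage. Their share called higher was near the background or just above it, at these small counts. In start-site groups, which sum the isoforms that share a start, 0 of 91, 4 of 104 and 2 of 93 were called, against 8.65%, 13.6% and 13.6%. Of these, 0, 3 and 0 were lower, against 7.83%, 11.2% and 10.5%, and 0, 1 and 2 higher, against 0.819%, 2.4% and 3.07%. Shifts in splicing within a start-site group were called in 1 of 36, 6 of 42 and 3 of 28, against 2.69%, 5.88% and 9.78%. Shifts in promoter usage were called in 2 of 17, 2 of 25 and 0 of 17, against 4.59%, 8.43% and 10.2%. For coding-sequence usage the counts were 0 of 24, 4 of 31 and 2 of 21, against 1.93%, 6% and 7.47%. These counts are small. The members' share was above the background for promoter usage in wandering larvae and for splicing and coding-sequence usage in stationary larvae. It was near the background for splicing in wandering larvae, for promoter usage in stationary larvae, and for splicing and coding-sequence usage in prepupae. It was below the background, with no call, for coding-sequence usage in wandering larvae and promoter usage in prepupae. In all, 18 members were called in at least 1 of these 5 tables, and 58 members were called in no table at all, gene level included. Of 13 members called in a usage table, ey and pan were also called for level.

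**Figure D5:**
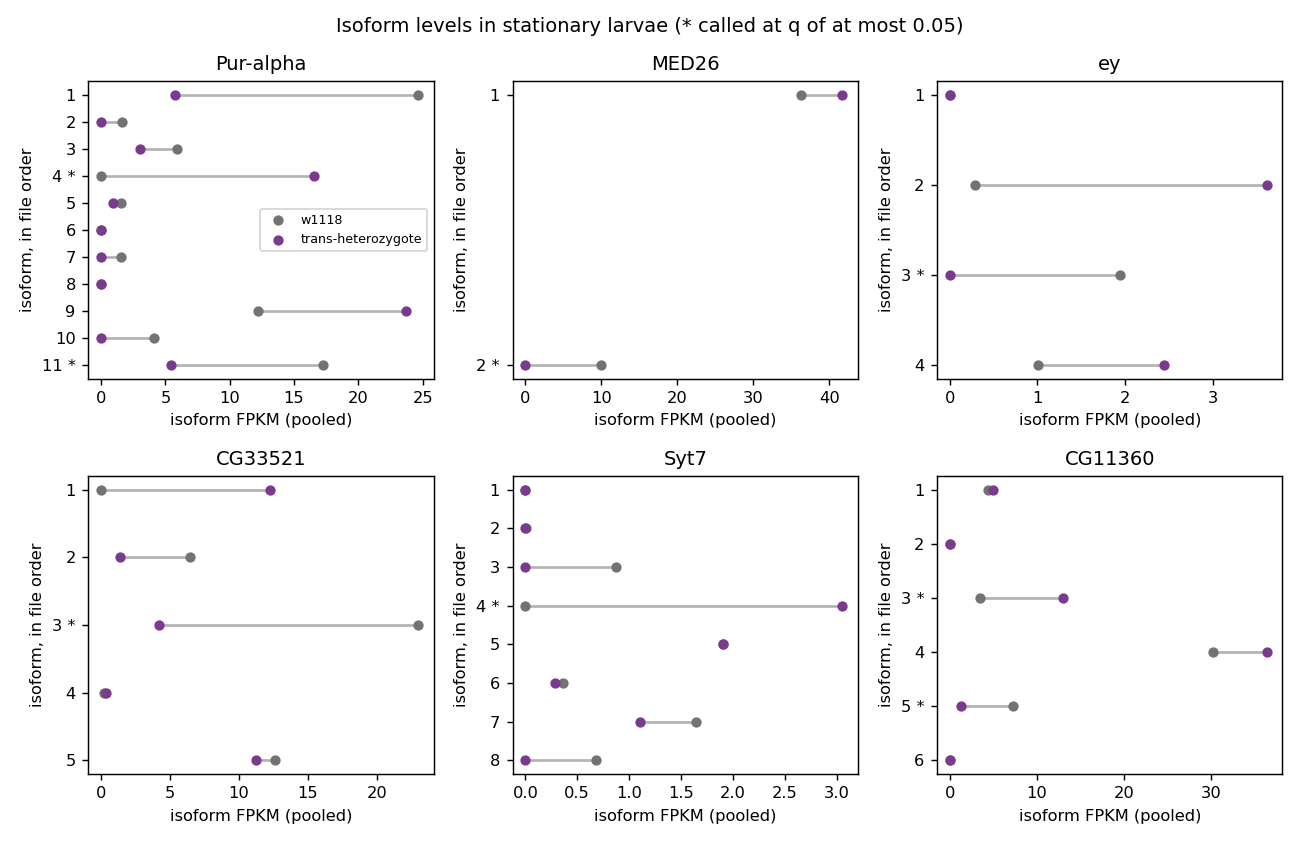
Pooled FPKM (horizontal) of each isoform, numbered in the order of the deposited table (vertical), for 6 members in stationary larvae, in w1118 (grey) and the Nxt1 trans-heterozygotes (purple), with stars at called isoforms. Isoform 4 of Pur-alpha goes from 0 to 16.6 FPKM, and isoform 2 of MED26 from 9.92 FPKM to 0.

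Pur-alpha, a nucleic-acid-binding protein gene, had isoforms called in both directions in stationary larvae with no call for the gene as a whole. How reads were divided among its 11 listed isoforms is not given in the sources used here. For w1118 its isoform 4 was listed at 0 in stationary larvae and for the trans-heterozygotes at 16.6 FPKM, with a deposited q of 1.05e-06. In prepupae the same isoform was listed at 0 and 16.2 FPKM, with q 3.62e-07. In wandering larvae it was near 0 in both genotypes and was not tested. Isoform 11 went the other way in stationary larvae, with 17.2 and 5.40 FPKM and q 0.0256. In prepupae isoform 11 had 14.6 and 8.24 FPKM and was not called, with q 0.224. Isoform 1, which was not tested, had 24.6 and 5.77 FPKM in stationary larvae. The gene as a whole had 59.6 and 70.1 FPKM, 68.8 and 55.4 FPKM, and 80.5 and 63.6 FPKM, with q values of 0.885, 0.514 and 0.260.

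MED26, a subunit of the Mediator complex, had an isoform listed at 0 in the trans-heterozygotes with no call for the gene as a whole. Isoform 2 had 9.92 FPKM in w1118 and a listed 0 in the trans-heterozygotes of the stationary stage, with q 7.72e-05, while the gene had 46.2 and 41.7 FPKM. The same isoform had 8.30 and 7.90 FPKM in wandering larvae and 4.88 and 0 FPKM in prepupae, where it was not tested. Change in usage is given by the deposited root of the Jensen-Shannon divergence, which is 0 where usage is identical, and for the promoters of MED26 it was 0.285, with q 0.000510. For ey, promoter usage was called in wandering larvae, with a score of 0.496 and q 0.0122. In stationary larvae, where the level of ey was not called, its isoform 3 had 1.95 FPKM in w1118 and was listed at 0 in the trans-heterozygotes, with q 0.00290. Splicing of ey was called at that stage too, with a score of 0.702 and q 0.00243. Isoform 3 of ey had 1.35 and 0.670 FPKM in wandering larvae and 0.269 and 0.401 FPKM in prepupae, where it was not tested.

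CG33521 had an isoform 3 that was lower at both later stages, at 23.0 and 4.22 FPKM and then 15.3 and 2.17 FPKM. The deposited q values were 0.00281 and 0.00675, and the gene itself, with 42.3 and 29.4 FPKM and 35.3 and 26.1 FPKM, was not called. CG33521 shares its locus with CG17471, a phosphoinositide kinase gene, and how reads of overlapping genes were divided is not given in the sources used here. In CG11360, stationary isoform 3 had 3.53 and 13.002 FPKM and isoform 5 had 7.26 and 1.30 FPKM, with q values of 0.00198 and 0.0323. Syt7, a calcium sensor of vesicle fusion, had an isoform listed at 0 and 3.06 FPKM in stationary larvae, with q 0.000274. In wandering larvae and prepupae it had 1.46 and 3.25 FPKM, and 2.31 and 3.73 FPKM, with no call. CG32000, an ion pump gene, had an isoform listed at 0 and 7.21 FPKM in wandering larvae, with q 0.0248. At the later stages that isoform had 3.04 and 1.71 FPKM, and 2.24 and 3.63 FPKM, with no call. The promoter usage score of CG32000 in wandering larvae was 0.213, with q 0.0484. Splicing was called for the kinase gene Dyrk3 in wandering larvae, with a score of 0.301 and q 0.00124. It was called for CG33978 in stationary larvae and prepupae, with scores of 0.194 and 0.102 and q values of 0.0141 and 0.0155. Coding-sequence usage of CG11148 was called in stationary larvae, with a score of 0.233 and q 0.00188. An isoform of the kinase gene Asator had 1.86 and 4.71 FPKM in prepupae, with q 0.0290. The gene CG32016, an eIF4E-binding regulator of translation, had an isoform with 15.2 and 25.5 FPKM in prepupae, with q 0.0295. For Arf102F, isoform 2 had 63.5 and 58.9 FPKM in stationary larvae, with q 0.936. Its isoform 1, which was not tested, had 12.0 and 59.3 FPKM there and 3.73 and 35.9 FPKM in prepupae. In wandering larvae, where the gene was not called, isoform 1 had 7.53 and 28.0 FPKM.

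Other chromosome 4 entries share loci with members, and 15 members overlap the locus of another entry in this way. With these left out, 55, 60 and 58 members were tested, and the counts of calls were the same as with them.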

How the data were processed

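RNA of 18 whole-animal samples was made into ScriptSeq libraries and sequenced from both ends, per the labels' protocols. Bowtie 1.1.1, Cufflinks and Cuffdiff are named per the submitters' processing notes. The genome build is not given in the sources used here. The authors deposited 1 FPKM per genotype and stage, pooled over 3 samples, so counts, values per sample and depth are unknown. The p-value, the q-value, the test statistic (a score) and the Jensen-Shannon score are deposited columns. The log2 fold changes given here were computed from the deposited FPKM of each genotype.

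A gene was called at deposited status OK and q of at most 0.05. The standard error was the size of the log2 fold change divided by that of the statistic. It was checked that p follows from the normal tail of the statistic and q from Benjamini-Hochberg adjustment. Other arms were weighted to the members' w1118 FPKM in 5 bins, and ratios used a pseudocount of 1. The test of stage differences was tested on simulated data. Ensembl release 115 (BDGP 6) gave symbols and exon structure only, with no coordinates taken from it. Coordinates are those of the deposited tables, counted from 1. Functional and marker lists were written from general knowledge. Members and lists were chosen with earlier results of these data known. Named genes were drawn from members called in any table, the 5 highest and 5 lowest ratios and the 5 highest levels per stage, functional list members, those nearest the level limit, and Nxt1, Pof, the HP1a gene and egg. Arf102F isoforms and the untested values were described because the gene was called. Promoter motifs were planned and not analysed here, and the values of 1 member are not reported here. Python 3.11.15, pandas 2.3.3, numpy 2.4.6 and scipy 1.17.1 were used. Replicates are 3 samples per group, and nothing in the labels says whether they came from separate cultures.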

Additional observations from a re-analysis of the deposited data

How the results depend on the processing

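No paired analysis was possible because the tables hold 1 pooled value per genotype and stage, and for the same reason fits without 1 replicate were not possible. Alternatives gave 96 values for the counts, weighted shares and medians, of which 14 moved. A count or share moved if it changed by over 1.5 times, or to or from 0. A median moved if it changed by a set difference on the log2 scale. At a q of at most 0.01, members called higher were 0, 0 and 1 at the 3 stages in place of 1, 1 and 3, and members called lower in prepupae 0 in place of 1. With an FPKM minimum of 5, members called lower were 0 in stationary larvae and 0 in prepupae, in place of 1 and 1, since CG32006 is below that level. When a gene counted as called through any of its start-site groups, members called higher in wandering larvae were 0 in place of 1. Members called lower were 3 in stationary larvae and 0 in prepupae, in place of 1 and 1. The 3 were CG32006, Pur-alpha and MED26, and the 1 isoform of CG32006 was not tested in prepupae. The cause of the difference in wandering larvae was not tested. Weighting other arms by locus span gave 6.05% called lower in wandering larvae in place of 9.63%, and 3.13% and 2.59% called higher in stationary larvae and prepupae in place of 4.94% and 5.08%. Weighting by FPKM and span together, chosen after seeing the data, gave 3.11% and 3.38% called higher there. It gave 7.12%, 12.5% and 11.3% called lower, against 0, 1 and 1 members. The medians of the members kept their sign. Of 209 gene values taken from the most abundant start-site group in place of the gene, 206 had the same verdict and 3 lost a call. The 206 were mostly values uncalled in both, since gene-level calls numbered only 1, 2 and 4 at the 3 stages. CG32006 in stationary larvae and Arf102F in prepupae kept theirs, but their groups had the gene's own values. The lost calls were ey, at 0.14 in wandering larvae and 0.55 in prepupae, and Arf102F, at 0.64 in stationary larvae. The gene-level ratio of Arf102F there was also 0.64, and q was adjusted over start-site groups in place of genes.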
